A study of Mus musculus with 8 samples.

Results

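Epithelial cells keep their identity through a keratin cytoskeleton, junctions that seal and fasten neighbouring cells, secreted or apical products, and transcription factors that hold this program in place. The 36 genes described here cover that program and its opposite in tumors grown from KPC pancreatic cancer cells, and the rule that picks them is a list of gene symbols. They comprised 27 epithelial genes and 9 mesenchymal genes. The epithelial genes were 5 keratins of simple epithelium, 3 basal genes, 7 junction genes, 5 apical or secreted products and 7 regulators. All 36 were among the 29968 genes of the deposited table, and 35 passed the filter on low counts (Krt5 did not).

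Tumor RNA was sequenced from 4 WT mice (C57BL/6J) and 4 complement C3 null mice (C3-/-), all of them male and 12 weeks old. Hosts of both groups received 250000 KPC FC1245 cells in the pancreas tail (50 μL of PBS), and tumors were collected at the study endpoint, day 14. FC1245 is 1 cell line, derived from a pancreatic tumor of a mouse in which Cre driven by Pdx-1 switched on a mutant Trp53 allele, among others, and its cells keep their own C3 gene, so only the host lacked C3. The comparison asks whether loss of host C3 was accompanied by a different epithelial or mesenchymal expression state of the same cancer cells and the host tissue around them.

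In pancreatic ductal adenocarcinoma, tumors are often placed between a classical state, marked by gastrointestinal epithelial products and by Gata6 and Hnf4a, and a basal state, marked by Krt5, Krt14 and Trp63. Epithelial-mesenchymal transition (EMT) is the loss of junction and keratin expression with a gain of vimentin and N-cadherin. It is driven by the repressors Snai1, Snai2, Zeb1 and Zeb2 and by Twist1, Twist2 and Prrx1, and is opposed by Grhl2, Ovol1 and the splicing factor Esrp1. Fibroblasts and other stromal cells also express the mesenchymal genes, and in a whole tumor a smaller number of cells of a type and less RNA per cell cannot be told apart.

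The total count per tumor lay between 13.3 and 23.4 M. C3 had 2998 to 7623 counts in WT tumors and 1591 to 2387 in C3-/- tumors, and the fitted log2 fold change was -1.42 ± 0.23 (SE), past the threshold in DESeq2 (adjusted p 1.28e-05) and not past it in edgeR (adjusted p 0.933). WT replicate 3 and C3-/- replicate 1 stood apart from the other 6 tumors, with lower levels of long genes and higher levels of short genes. Fibroblast markers (Pdgfra, Pdgfrb, Col1a1, Dcn, Lum, Dpt, Fap and Thy1), which were above 0 in every tumor, summed to between 3488 and 5656 CPM (counts scaled to a tumor's TMM-normalized total) in WT tumors and to between 2048 and 5315 CPM in C3-/- tumors. Acinar markers reached a sum of 1763 CPM in C3-/- replicate 1 and at most 487 CPM elsewhere, and skeletal muscle markers ranged from 1.66 to 3595 CPM among tumors of both genotypes.

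The tumors carried both epithelial and mesenchymal transcripts. Krt19 (chr11:100031636-100039491 of mm39), the ductal keratin, had 1154, 1322, 1302 and 701 CPM in WT replicates 1 to 4 and 1561, 881, 836 and 703 CPM in C3-/- replicates 1 to 4. Epcam (chr17:87943407-87958557), an adhesion molecule of epithelial cells, had 180.4, 152, 315 and 168 CPM in WT tumors and 187, 269, 138 and 119 CPM in C3-/- tumors. Vim (chr2:13578738-13587637), the mesenchymal intermediate filament vimentin, had 2286, 2412, 2446 and 2059 CPM in WT tumors and 2366, 1284, 1704 and 1846 CPM in C3-/- tumors. For none of the 3 did the groups separate, and all 3 were abundant in each tumor. Per annotated gene length (FPKM, fragments scaled to depth and gene length), the mean over the 8 tumors was 565 for Krt19, 86.2 for Epcam and 428 for Vim. These means were above 99.9%, 98.3% and 99.8% of the genes in the table.

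**Figure D1:**
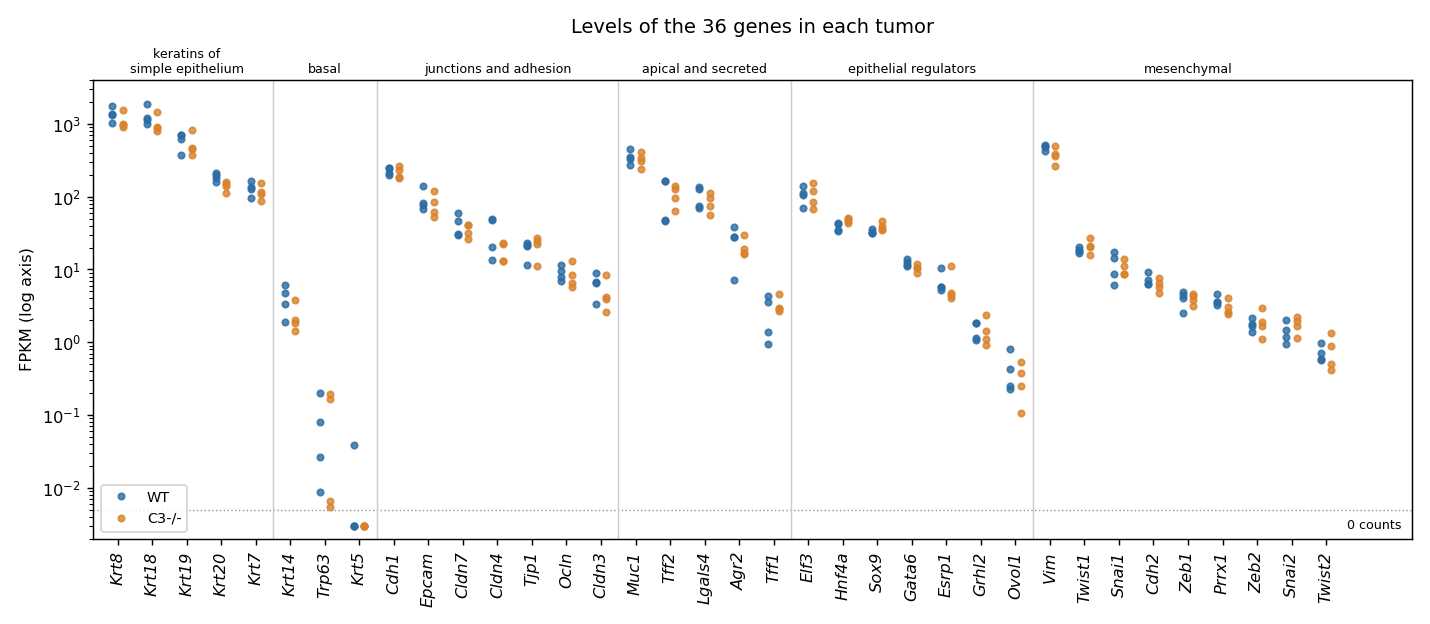
Levels of the 36 genes as FPKM on a log axis, with 1 point per tumor (blue, 4 WT; orange, 4 C3-/-), grouped by role and ordered by mean within a role. Krt8 and Krt18 averaged 1239 and 1152 FPKM, the basal genes Trp63 and Krt5 lay at the bottom of the scale, and points under the dotted line had 0 counts.

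Promoter sequence was examined because Snai1, Snai2, Zeb1 and Zeb2, all members, are known to bind the E-box hexamer CACCTG, which reads CAGGTG on the opposite strand, in promoters of epithelial genes. The 250 bases before the annotated start were taken from RefSeq (GRCm38.p6, an older build than the mm39 of the counts) for the 23 members that matched. No entry matched the epithelial genes Cdh1, Krt19, Sox9, Gata6, Grhl2, Esrp1, Ovol1, Tff1, Tff2 and Trp63. The mesenchymal genes Cdh2, Zeb1 and Snai2 had none either, so the shares below do not cover these members. Of 17 epithelial genes matched, 12 (70.6%) had the hexamer on either strand in at least 1 of their promoters, against 1 of 6 mesenchymal genes (16.7%; Snai1 itself) and 5252 of 27025 genes with a promoter in the table (19.4%). Counted by window, 17.2% of all 32851 promoters of this length held it. The keratin pair Krt8 and Krt18 and Epcam are shown for the hexamer and Krt20 for its absence, since Krt20 had the smallest p of the members between genotypes. Krt20 had TATAAA at position -29 instead, which 7.59% of all windows contained. Each sequence runs 5′ to 3′ on the gene's strand and ends at the base before the start site, with the hexamer or TATAAA in capitals. The windows are chr15:102004343-102004592 (minus strand, hexamer from position -111), chr15:102027966-102028215 (plus strand, -214), chr17:87635729-87635978 (plus strand, -187 and -19) and chr11:99438154-99438403 (minus strand). These letters are matches only, and binding was not measured.
Krt8: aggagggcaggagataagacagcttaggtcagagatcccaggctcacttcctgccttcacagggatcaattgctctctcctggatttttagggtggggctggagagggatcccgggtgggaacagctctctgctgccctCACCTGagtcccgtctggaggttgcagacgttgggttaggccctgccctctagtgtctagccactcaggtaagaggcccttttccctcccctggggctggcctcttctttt
Krt18: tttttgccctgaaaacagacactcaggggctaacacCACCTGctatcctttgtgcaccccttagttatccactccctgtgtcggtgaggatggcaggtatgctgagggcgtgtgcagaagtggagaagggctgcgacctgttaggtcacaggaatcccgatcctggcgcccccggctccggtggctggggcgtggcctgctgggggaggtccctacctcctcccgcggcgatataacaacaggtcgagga
Epcam: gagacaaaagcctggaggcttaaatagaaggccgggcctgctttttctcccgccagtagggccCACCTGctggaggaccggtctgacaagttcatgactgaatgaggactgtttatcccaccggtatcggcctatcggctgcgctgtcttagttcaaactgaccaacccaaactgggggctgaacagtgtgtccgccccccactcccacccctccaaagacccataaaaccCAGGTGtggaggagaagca
Krt20: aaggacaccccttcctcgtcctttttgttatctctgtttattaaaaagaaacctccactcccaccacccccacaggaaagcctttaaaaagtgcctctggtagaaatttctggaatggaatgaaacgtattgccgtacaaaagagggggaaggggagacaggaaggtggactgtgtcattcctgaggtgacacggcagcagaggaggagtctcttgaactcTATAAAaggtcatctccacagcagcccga

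Krt8, Krt18 and Krt19 had the highest levels per length of the epithelial genes, and all 5 keratins of simple epithelium had a lower estimate in C3-/- tumors (log2 fold change -0.42 to -0.15), none past the adjusted threshold. Krt8 and Krt18 pair to form the filament of simple epithelia and are neighbours on chromosome 15, 23.7 kb apart (chr15:101905133-101912917 and chr15:101936615-101940462). Krt8 had 2699, 2648, 3453 and 2049.9 CPM in WT tumors and 3050.2, 1940.2, 1947 and 1802 CPM in C3-/- tumors. Krt18 had 1621, 1719, 2691 and 1438 CPM in WT tumors and 2125, 1321, 1290.3 and 1171 CPM in C3-/- tumors. For both genes the other 3 C3-/- tumors lay below all WT tumors, and C3-/- replicate 1 lay second only to WT replicate 3. The log2 fold change was -0.31 for Krt8 (95% interval -0.80 to 0.17) and -0.34 for Krt18 (-0.89 to 0.21). Without C3-/- replicate 1 the estimates were -0.52 and -0.57 (adjusted p 0.417 and 0.439 in edgeR), and without WT replicate 3 they were -0.17 and -0.11.

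Krt20 (chr11:99319229-99328976), a keratin of gastrointestinal epithelium, had 384, 355, 416 and 306 CPM in WT tumors and 294, 309, 272 and 219.8 CPM in C3-/- tumors. The groups overlapped by 1 pair, since C3-/- replicate 2 lay above WT replicate 4, and the means were 365 ± 46.5 and 274 ± 39.2 CPM (SD, n = 4 each). The fitted difference was -0.42 on the log2 scale (SE 0.15), with an unadjusted p of 0.0186 and an adjusted p of 0.96 in edgeR. Over the 18 alternative settings the estimate stayed between -0.53 and -0.32, and without C3-/- replicate 4 the unadjusted edgeR p was 0.0588. Krt19, whose values are given above, had a log2 fold change of -0.17 (95% interval -0.79 to 0.45) and moved to -0.47 when C3-/- replicate 1 was left out and to -0.04 when C3-/- replicate 4 was. Krt7, a further ductal keratin, ranged from 685 to 1163 CPM in WT tumors and from 624 to 1106 CPM in C3-/- tumors, with a log2 fold change of -0.15 (-0.61 to 0.32) that was -0.31 without C3-/- replicate 1 and -0.02 without WT replicate 3.

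Basal genes were low. Krt5, the keratin of basal layers, had 0 counts in 7 tumors and 2 counts in WT replicate 4, and it was not tested. Krt14, its partner, had 5.91, 3.32, 11 and 8.55 CPM in WT tumors and 6.79, 3.64, 3.21 and 2.57 CPM in C3-/- tumors, on 44 to 201 counts. The groups overlapped, and the log2 fold change was -0.82 (95% interval -1.73 to 0.08, adjusted p 0.971 in edgeR), with -1.19 when C3-/- replicate 1 was left out and -0.55 when WT replicate 3 was. Trp63, the transcription factor of basal epithelium, had 11, 3, 1 and 40 counts in WT tumors and 1, 1, 26 and 26 counts in C3-/- tumors. It was highest in WT replicate 4 and C3-/- replicates 3 and 4, whose summed skeletal muscle markers were 3595, 1443 and 3320 CPM. Those sums were 1591, 2.11 and 1.66 CPM in WT replicates 1 to 3 and 1803 and 1.90 CPM in C3-/- replicates 1 and 2, and their part in the Trp63 counts was not tested. At a mean FPKM of 3.17, 0.0863 and 0.00478, Krt14, Trp63 and Krt5 stood above 66.3%, 24.7% and 0.941% of the genes in the table.

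Among junction genes, Cdh1 (chr8:107329983-107396878), which encodes E-cadherin, had the highest level per length (mean 220.3 FPKM). It had 1137, 1151, 971 and 906 CPM in WT tumors and 853, 1208, 1086 and 826 CPM in C3-/- tumors. The highest and the lowest tumor were both C3-/-, and the 8 values spanned 1.46-fold, less than those of any other junction member. Its log2 fold change was -0.07, with a 95% interval of -0.44 to 0.30. Epcam had a log2 fold change of -0.19 (-0.85 to 0.46), which was 0.09 without WT replicate 3, the tumor with its highest level.

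Claudins form the seal of tight junctions. Cldn7 had 89.6, 60.2, 117 and 58.7 CPM in WT tumors and 80.6, 79.9, 63.1 and 51.3 CPM in C3-/- tumors, and the groups overlapped (log2 fold change -0.24, 95% interval -0.77 to 0.29, with -0.37 without WT replicate 4 and -0.02 without WT replicate 3). Cldn4 ranged more widely, from 24.4 to 90.1 CPM in WT tumors and from 23.9 to 43.0 CPM in C3-/- tumors. WT replicates 2 and 3, with 90.1 and 87.6 CPM, lay above all others, while WT replicate 1 lay among the lowest. For Cldn4 the estimate was -0.86 (SE 0.40, adjusted p 0.971 in edgeR), with -1.12 without WT replicate 1 (adjusted p 0.995 in edgeR) and -0.60 without WT replicate 2. Cldn3, which lies 39.3 kb from Cldn4 on chromosome 5, had 3.28 to 11.4 CPM, and Ocln, the tight junction protein occludin, had 25.0 to 55.7 CPM. Their log2 fold changes were -0.41 (95% interval -1.28 to 0.46) and -0.09 (-0.66 to 0.48). For Cldn3 the estimate was -0.83 without C3-/- replicate 1 (adjusted p 0.45 in edgeR) and -0.20 without WT replicate 2. Tjp1, the scaffold protein ZO-1, was the 1 junction member with an estimate above 0 (0.15, -0.48 to 0.78). It had 91.0 CPM in WT replicate 3 and 89.2 CPM in C3-/- replicate 1, and 165 to 215 CPM in the other 6 tumors.

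Apical and secreted products of the classical program were expressed in both genotypes over overlapping ranges. Muc1, the transmembrane mucin of apical surfaces, had 814, 771, 1072 and 649 CPM in WT tumors and 803, 982, 723 and 579 CPM in C3-/- tumors. Lgals4, a galectin of gastrointestinal epithelium, had 291, 172, 313 and 166 CPM in WT tumors and 267, 222, 172 and 133 CPM in C3-/- tumors. Both sets of values overlapped throughout, with log2 fold changes of -0.10 (95% interval -0.55 to 0.35) and -0.24 (-0.84 to 0.35). Tff2, a gastric trefoil peptide, had 97.0, 27.7, 96.9 and 28.4 CPM in WT tumors and 84.2, 74.6, 55.5 and 37.3 CPM in C3-/- tumors. WT tumors thus fell at both ends of its range, and the log2 fold change was 0.01 (-0.97 to 0.99). Its neighbour Tff1, 17.1 kb away on chromosome 17, was scarce at 0.681 to 3.30 CPM (log2 fold change 0.38, -0.66 to 1.43). Agr2, an endoplasmic reticulum protein of secretory cells, had 9.27 to 49.3 CPM, the lowest and the highest both in WT tumors (-0.29, -1.19 to 0.62). With 1 tumor left out, the estimates ranged from -0.60 (without WT replicate 2) to -0.02 (without WT replicate 3) for Agr2, from 0.09 (without WT replicate 4) to 0.77 (without WT replicate 3) for Tff1 and from -0.42 (without C3-/- replicate 1) to -0.08 (without WT replicate 3) for Lgals4.

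Epithelial regulators included the 1 member whose groups did not overlap. Hnf4a (chr2:163348728-163414830), the nuclear receptor of endodermal epithelium, had 209, 207, 172 and 165 CPM in WT tumors and 225, 244, 249.7 and 212 CPM in C3-/- tumors. Each C3-/- tumor lay above each WT tumor, the nearest being 211.8 and 209.2 CPM, and the means were 188 ± 22.9 and 233 ± 17.5 CPM (SD, n = 4 each). The fitted difference was 0.30 on the log2 scale (SE 0.13), with an unadjusted p of 0.0355 and an adjusted p of 0.971 in edgeR. It lay between 0.24 and 0.36 over 18 alternatives and the unadjusted p was below 0.05 in 11 of them, with a largest edgeR p of 0.112 without C3-/- replicate 3. Hnf4a overlaps the antisense gene Hnf4aos, and the strand setting of the counting is not given in the sources used here, so its count is uncertain to that extent. In all, 25 of the 36 members overlap an annotated gene on the opposite strand, among them Krt8, Krt19, Krt7, Epcam, Vim, Sox9 and Cldn7. These overlaps, that of Hnf4a included, are of whole gene spans. Exons were not compared, so how far any of these counts is affected is not known.

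Sox9, a factor of ductal and progenitor cells, had 147, 130.1, 136 and 134 CPM in WT tumors and 148, 197, 163 and 146 CPM in C3-/- tumors. Only C3-/- replicate 4 fell below a WT tumor, and the log2 fold change was 0.26 (95% interval -0.02 to 0.54, adjusted p 0.971 in edgeR; 0.16 without C3-/- replicate 2). Elf3, an epithelial ETS factor and the regulator with the highest level per length (107 FPKM), had 233, 253, 319 and 158 CPM in WT tumors and 344, 268, 186 and 154 CPM in C3-/- tumors. Its values overlapped throughout, with a log2 fold change of -0.02 (-0.62 to 0.59). Gata6, a factor of the classical state, had 59.1 to 91.3 CPM and a log2 fold change of -0.22 (-0.50 to 0.06). The classical factors Hnf4a and Gata6 thus had estimates of opposite sign. Grhl2 (7.91 to 20.8 CPM) and Ovol1 (0.378 to 2.86 CPM) had log2 fold changes of -0.01 (-0.72 to 0.70) and -0.38 (-1.61 to 0.84).

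Esrp1, the epithelial splicing regulator, had 66.1 CPM in WT replicate 3 and 70.8 CPM in C3-/- replicate 2, and 26.4 to 36.5 CPM in the other 6 tumors. The tumors that stood out were thus 1 of each genotype, and the log2 fold change was -0.14 (95% interval -0.91 to 0.63). Epcam and Muc1 had their 2 highest values in the same tumors, at 315 and 269 CPM for Epcam and at 1072 and 982 CPM for Muc1, which was seen only on looking through the values. These tumors also held the lowest summed fibroblast marker level of their genotype, 3488 CPM in WT replicate 3 and 2048 CPM in C3-/- replicate 2, whose part in the pattern was not tested.

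Mesenchymal genes showed no shared direction. Vim had means of 2301 ± 175 CPM in WT tumors and 1800.2 ± 447 CPM in C3-/- tumors (SD, n = 4 each), with C3-/- replicate 1 inside the WT range and the other 3 C3-/- tumors below it. The log2 fold change was -0.35 (95% interval -0.77 to 0.07, adjusted p 0.972 in edgeR) and was -0.51 without C3-/- replicate 1. The lowest value, 1284 CPM, was in C3-/- replicate 2, the tumor with the lowest fibroblast marker sum, and without this tumor the estimate was -0.22. The part of fibroblast content in these Vim values was not tested.

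Of the EMT factors, Twist1 had the highest level per length (19.8 FPKM), followed by Snai1 (11.1 FPKM), with ranges over tumors that overlapped (15.6 to 26.7 and 6.21 to 17.5 FPKM). Twist1 had 30.5, 33.9, 27.9 and 29.1 CPM in WT tumors and 44.0, 25.8, 33.6 and 35.1 CPM in C3-/- tumors. Snai1 had 10.1, 14.2, 28.6 and 23.8 CPM in WT tumors and 18.1, 14.2, 14.1 and 23 CPM in C3-/- tumors. For Twist1 the C3-/- tumors spanned the whole WT range and for Snai1 the reverse held, with log2 fold changes of 0.19 (95% interval -0.18 to 0.56) and -0.15 (-0.84 to 0.55). Zeb1, at 26.5 to 50.8 CPM, had a log2 fold change of 0.00 (-0.46 to 0.45), and Zeb2, at 22.6 to 61.1 CPM, had 0.14 (-0.46 to 0.74). Snai2 (1.96 to 4.54 CPM) and Twist2 (1.32 to 4.35 CPM) were scarce, with log2 fold changes of 0.30 (-0.39 to 1.0) and 0.18 (-0.71 to 1.07). Cdh2, which encodes N-cadherin, had 38.8 to 74.4 CPM and -0.22 (-0.62 to 0.17), and Prrx1, a mesenchymal homeobox gene, had 27.4 to 52.0 CPM and -0.30 (-0.71 to 0.11). With 1 tumor left out, the estimates ranged from 0.05 to 0.31 for Twist1 (without C3-/- replicates 1 and 2, in turn), from 0.16 to 0.53 for Snai2 (without WT replicates 2 and 4), from -0.34 to -0.09 for Cdh2 (without C3-/- replicate 4 and WT replicate 2) and from -0.47 to -0.18 for Prrx1 (without C3-/- replicate 4 and WT replicate 4).

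**Figure D2:**
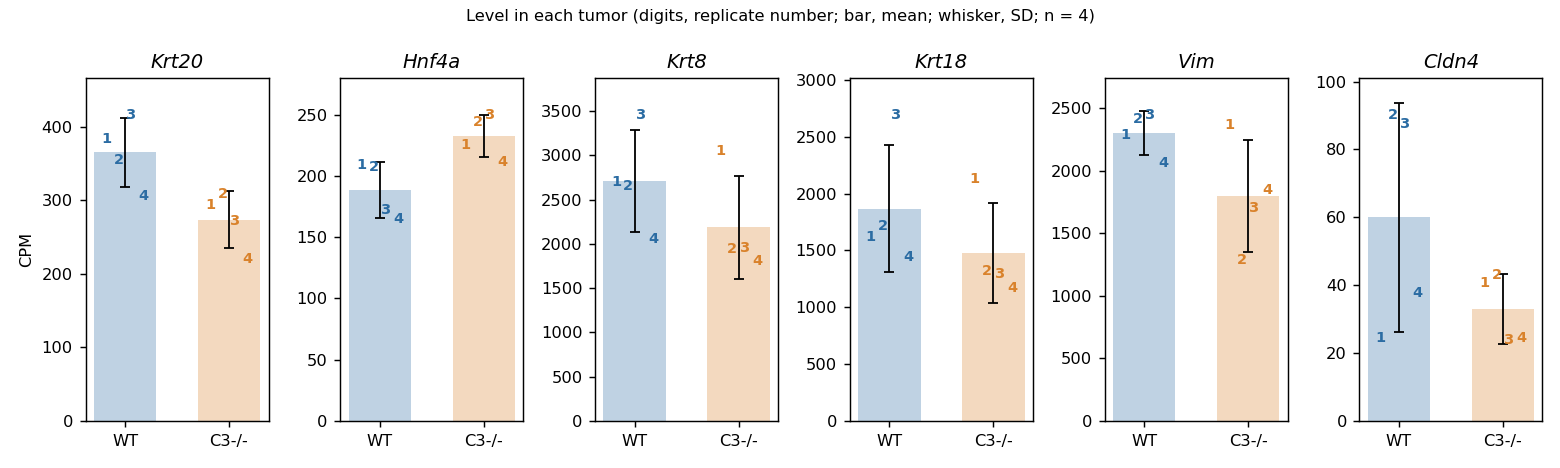
CPM of Krt20, Hnf4a, Krt8, Krt18, Vim and Cldn4 in each tumor, with digits for the replicate number, bars for the group mean and whiskers for the SD of 4 tumors. Hnf4a is the panel without overlap between groups, and in the Krt8, Krt18 and Vim panels C3-/- replicate 1 lies above the other C3-/- tumors.

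Over all members, 0 of the 35 genes tested had an adjusted p below 0.05 in edgeR's quasi-likelihood test (smallest 0.96), as for all 16610 genes tested (0%). DESeq2 on the same counts likewise called 0 members (smallest adjusted p 0.606) against 0.0535% of all genes. At an unadjusted edgeR p below 0.05 there were 2 members (5.71%), Krt20 lower and Hnf4a higher in C3-/- tumors, against 5.11% of all genes, 2.07% lower and 3.03% higher. The 1 member without overlap compares with 3.73% of all genes tested, and with 2.28% separated in the direction of higher values in C3-/- tumors. The members' shares thus lay near those of all genes. DESeq2 gave an unadjusted p below 0.05 for 4 members (Krt20, Krt14, Cldn4 and Hnf4a; 11.1%), against 3.98% of all genes. That share is over 29900 genes without the filter on low counts, so it is not on the same footing as the edgeR share.

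The median log2 fold change was -0.16 over the 26 epithelial genes tested (6 above 0, 20 below) and 0.00 over the 9 mesenchymal genes (4 above, 5 below), beside 0.00 over all genes tested. Leaving out 1 tumor at a time moved the epithelial median between -0.29 (without C3-/- replicate 2) and -0.03 (without WT replicate 3), and without WT replicate 4 and C3-/- replicate 1 together it was -0.35. The mesenchymal median moved between -0.16 (without C3-/- replicate 4, where the epithelial median was -0.04) and 0.10 (without WT replicate 4). The pooled SD of a list's level between tumors of a genotype was 0.30 for the epithelial and 0.21 for the mesenchymal genes. Without C3-/- replicate 1, 8 members had an unadjusted edgeR p below 0.05 (22.9%; Krt8, Krt18, Krt20, Krt14, Cldn3 and Vim lower, Hnf4a and Sox9 higher), against 10.7% of all genes, and their adjusted p was at least 0.405. With WT replicate 3 also left out, there were 6 (17.1%; Krt8, Krt18, Krt20, Krt14, Sox9 and Vim), against 10.6% of all genes. Both exclusions raised the share among all genes too.

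**Figure D3:**
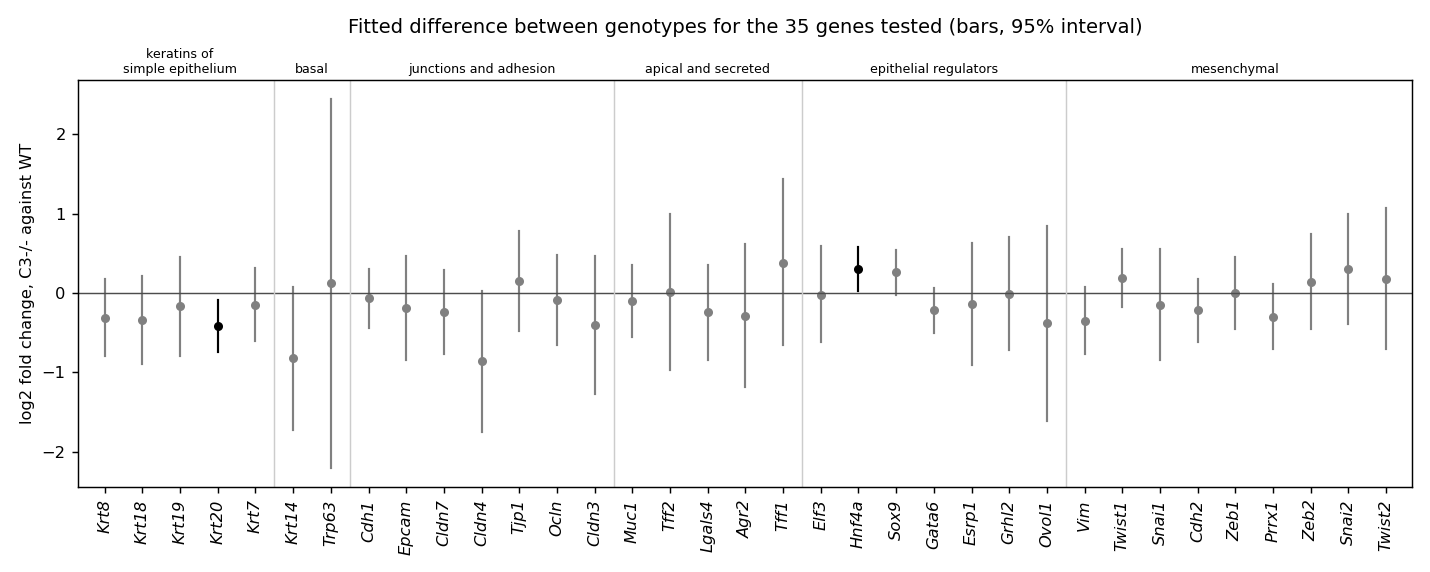
Fitted log2 fold change of C3-/- against WT tumors for the 35 genes tested, with 95% intervals, grouped by role. Black marks Krt20 and Hnf4a, the members with an unadjusted edgeR p below 0.05, and all 5 simple keratins lie below 0.

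Among further genes of the same programs, none had an adjusted p below 0.05 in edgeR or DESeq2. Of 42 other junction and epithelial genes tested, 17 had an estimate above 0 and 25 below. Lamb3, a laminin chain of the basement membrane, and the motor protein gene Myo5b had log2 fold changes of -0.39 (SE 0.18) and -0.22 (SE 0.13). Of 30 other classical and basal subtype genes tested (14 above 0, 16 below), Lemd1 had a log2 fold change of 1.08 (SE 0.34), Pdx1, the pancreatic homeobox factor, 0.34 (SE 0.13) and Foxa1, a pioneer factor of endoderm, 0.27 (SE 0.13). The C3-/- tumors lay above all WT tumors for Lemd1 (1.97 to 3.51 against 0.808 to 1.73 CPM) and for Pdx1 (34.2 to 42.1 against 29.3 to 33.5 CPM). These were 2 of the 30 genes, where 2.28% of all genes tested were separated in this direction. The smallest adjusted p of this list was 0.96 in edgeR.

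Of 36 other mesenchymal and TGF-β genes tested, 12 had an estimate above 0 and 24 below. Loxl2, a collagen cross-linking enzyme, had a log2 fold change of -0.44 (SE 0.14) and the ligand Tgfb3 0.28 (SE 0.12), neither with an adjusted p below 0.96 in edgeR. Mesothelial cells also express keratins, and all 5 of their markers had an estimate below 0 in C3-/- tumors. Upk3b, Lrrn4 and Upk1b had log2 fold changes of -1.43 (SE 0.36), -1.30 (SE 0.37) and -0.91 (SE 0.37), with adjusted p from 0.933 to 0.971 in edgeR. The 5 markers summed to 486 to 572 CPM in WT tumors and 366 to 549 CPM in C3-/- tumors, most of it Msln (476 to 549 and 349.97 to 538 CPM; log2 fold change -0.08, SE 0.16), which pancreatic cancer cells are known to express too. The other 4 summed to 10 to 27.6 and 8.57 to 16.4 CPM, against 1802 CPM or more of Krt8, and their part in the keratin values was not tested.

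Whether known partners or opponents moved together was examined over the 8 tumors for 10 pairs of members, with an exact permutation test (two-sided) of log2 CPM. Krt8 and Krt18 moved together, with Pearson's r of 0.968 (exact permutation p 9.92e-05, adjusted over the pairs 0.000992) and Spearman's rho of 0.952 (exact permutation p 0.00114, adjusted 0.0114). Taking out the genotype means left r at 0.961, and leaving out WT replicate 3 and C3-/- replicate 1, the tumors farthest from the median of Krt8, left r at 0.959. The keratin pair thus varied among tumors of both genotypes in step. Esrp1 and Grhl2 had r of 0.820 (exact permutation p 0.00933, adjusted 0.0466) and rho of 0.786 (exact permutation p 0.0279, adjusted 0.0698), but without C3-/- replicate 2 and WT replicate 3 r was 0.447, so the relation rests on those tumors. With 1 tumor left out, the adjusted p of this pair was 0.0787 to 0.158 (exact permutation) in 6 of 8 cases, so it did not pass the threshold in those.

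Cdh1 was set against 7 of the genes. With Snai2, its repressor, r was -0.767 (exact permutation p 0.0379, adjusted 0.0994) and rho was -0.857 (exact permutation p 0.0107, adjusted 0.0536), which did not pass the threshold after adjustment. Without C3-/- replicates 1 and 4, the tumors farthest from the median of Cdh1, r was -0.728, and about the genotype means it was -0.764. Leaving out C3-/- replicate 3 alone gave r of -0.91 (adjusted exact permutation p 0.0265). For any other tumor left out, the adjusted exact permutation p was 0.108 or more. With Snai1, r was -0.724 (exact permutation p 0.0497, adjusted 0.0994) and rho was -0.595 (exact permutation p 0.132, adjusted 0.265). Against Zeb1, Zeb2, Vim, Cdh2 and Epcam, r was between -0.321 and 0.278 with an adjusted exact permutation p of at least 0.698. Over the 6 tumors other than WT replicate 3 and C3-/- replicate 1, untested, r with Cdh1 was -0.859 for Snai1, -0.832 for Snai2, -0.943 for Zeb2, -0.629 for Zeb1, -0.31 for Cdh2, -0.156 for Vim and 0.65 for Epcam, an exclusion chosen after seeing the data. Over all 8 tumors, r with Zeb2 was -0.173, and it was 0.40 when C3-/- replicate 4 alone was left out. Zeb1 and Zeb2 had r of 0.728 (exact permutation p 0.0431, adjusted 0.0994) and rho of 0.810 (exact permutation p 0.0218, adjusted 0.0698), and without WT replicate 3 and C3-/- replicate 1 r was 0.493.

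**Figure D4:**
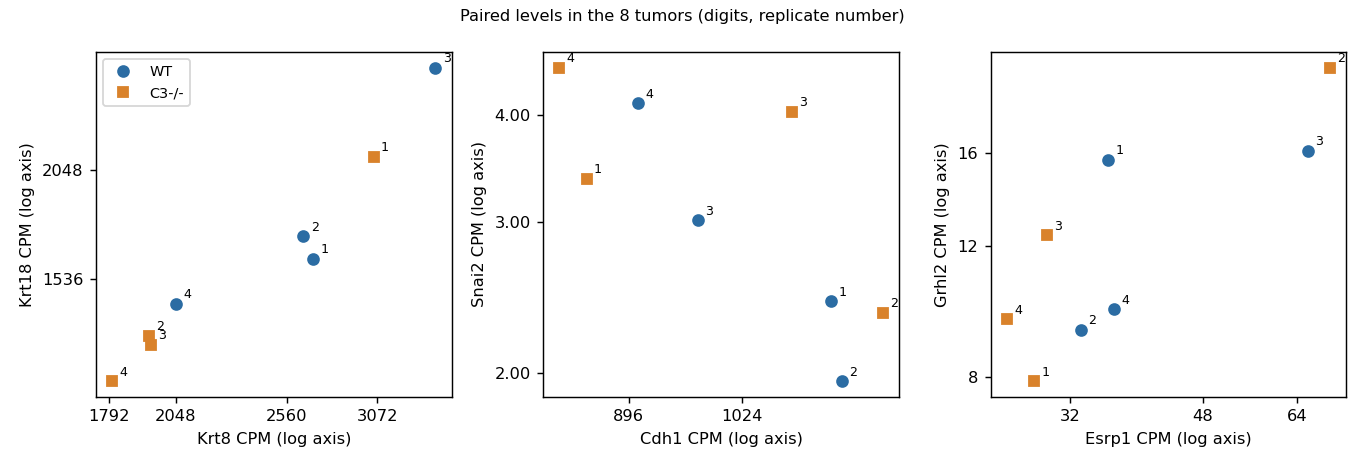
CPM (log axes) of Krt18 against Krt8, Snai2 against Cdh1 and Grhl2 against Esrp1 in the 8 tumors (blue circles, WT; orange squares, C3-/-; digits, replicate number). The keratin pair lies along a line (r 0.968), Snai2 is lower where Cdh1 is higher (r -0.767), and in the Esrp1 panel C3-/- replicate 2 and WT replicate 3 lie to the right of the rest.

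Levels of short and long genes differed between 2 of the tumors and the other 6. Over all tested protein-coding genes, the median deviation of long genes (over 5842 bases, 4671 genes) minus that of short genes (at most 3302 bases, 4673 genes) was -0.45 on the log2 scale in WT replicate 3 and -0.53 in C3-/- replicate 1, where the remaining 6 tumors had 0.08 to 0.29. The members followed it. All 19 members of at most 3302 bases, among them Krt8, Krt18, Krt19, Krt20, Epcam and Muc1, had a higher mean in these 2 tumors than in the other 6, as did 80.5% of all short genes, and 2 of 10 long members did, against 21.5% of long genes. Across genes, which are not independent, Spearman's rho between length and this difference was -0.72 over the 35 members and -0.584 over 14013 protein-coding genes. With each tumor's trend on gene length removed, Krt8, Krt18, Krt20 and Hnf4a had log2 fold changes of -0.29, -0.29, -0.37 and 0.29 (adjusted p 0.675 to 0.770 in edgeR). The tumors concerned were 1 of each genotype.

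**Figure D5:**
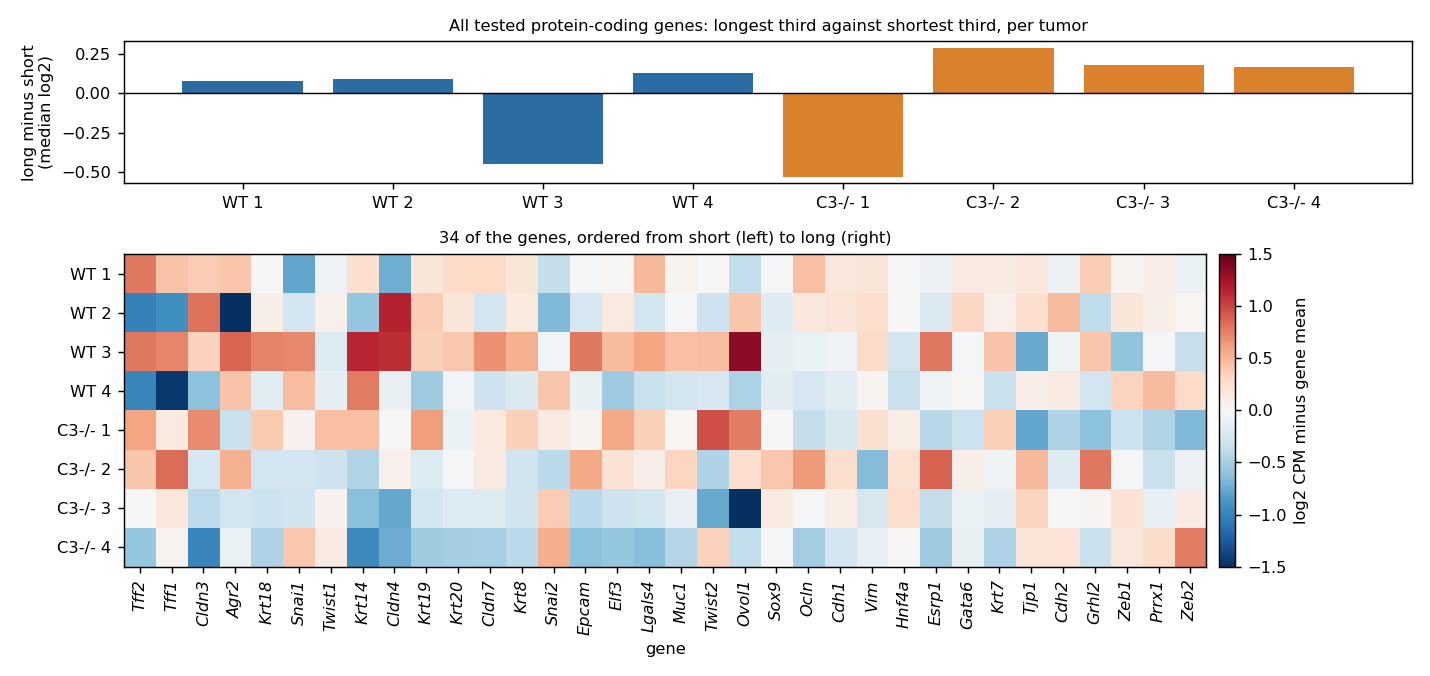
Top, median log2 deviation of long minus short protein-coding genes per tumor (blue, WT; orange, C3-/-). Bottom, log2 CPM minus the gene's mean over tumors for 34 members (without Krt5 and Trp63), from short at the left to long at the right, in which WT replicate 3 and C3-/- replicate 1 are mostly red over short genes and pale or blue over long ones.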

How the data were processed

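Tumor RNA was poly-A selected and sequenced as read pairs. The paper's methods name STAR and HTSeq for alignment to mm39 and counting, whereas the submitters' processing notes name HISAT2 2.0.5 and DESeq2 1.20.0, and the strand setting is not given in the sources used here. The authors deposited raw counts per gene, which were used for all tests, and FPKM values (scaled to depth and gene length), which were used for levels per length. The size-factor-normalized signal that the authors deposited, and their own log2 fold changes with p-values before and after adjustment, were not used.

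The members and gene lists were chosen with earlier results of these data known. Values in every tumor were given for Krt19, Epcam, Vim, Cdh1, members with an unadjusted p below 0.05 or without overlap, and the 3 members of each role with the highest FPKM. From each wider list the 3 genes with the smallest p were taken (some are not reported here), and Esrp1, Tjp1, Cldn4 and the mesothelial genes were described after their values were seen. Counts of all 8 tumors (13.3 to 23.4 M each, read pairs without molecular identifiers) were fitted with edgeR 4.0.16 in R 4.3.3, with TMM normalization, filterByExpr at its minimum of 10 counts, glmQLFit, glmQLFTest and Benjamini-Hochberg adjustment over 16610 genes. The SE is the absolute log2 fold change over the square root of F. Each tumor is a biological replicate, and no library repeated another (chi-square per gene at least 15.3 for every pair). Log2 CPM used a prior count of 2. Exact permutation tests went through all orders of the tumors with numpy 2.4.6, with ranks and adjustment from scipy 1.17.1. The fits were tested on simulated data.

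The alternatives were DESeq2 1.42.0, limma-voom (limma 3.58.1), DESeq2 size factors in edgeR, no filter, a minimum of 10 counts in each tumor, robust fitting, a replicate block, each tumor left out in turn, WT replicate 4 (liver transcripts) and C3-/- replicate 1 (acinar transcripts) left out together, and FPKM plus 0.1 or 1 in place of CPM for the pairs. Removing the trend on gene length, and leaving out WT replicate 3 and C3-/- replicate 1 together, were chosen after seeing the data.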

Additional observations from a re-analysis of the deposited data

Results flagged for a closer look

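Each genotype's 4 values were examined, on the log2 CPM scale, for a tumor set apart from the other 3. Of 72 groups examined, 5 had such a tumor, where chance gives 3.6. Krt8 stood at 11.57 for C3-/- replicate 1 and 10.82 to 10.93 for the rest of its group. Tjp1 was 6.51 in WT replicate 3 and 7.36 to 7.51 in the other WT tumors. Tff1 was 1.77 in C3-/- replicate 2 and 1.02 to 1.13 in the others of its genotype. Esrp1 stood apart in both genotypes, at 6.05 in WT replicate 3 against 5.05 to 5.2, and at 6.15 in C3-/- replicate 2 against 4.73 to 4.90.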

How the results depend on the processing

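No member had an adjusted p below 0.05 under any of the 18 alternatives. The count of members with an unadjusted p below 0.05, 2 as reported, was 4 with DESeq2 (11.1% against 3.98% of all genes) and 4 without a filter (11.1% against 4.47%). In these fits all genes included those of low counts. The count was 9 without WT replicate 4 and C3-/- replicate 1 together (25.7% against 12.4%). It was 6 without WT replicate 3 and C3-/- replicate 1 together (17.1% against 10.6%) and 5 with the gene-length trend removed (14.3% against 6.65%). With 1 tumor left out it was 1 to 8 (2.86% to 22.9%), where the share of all genes was 2.75% to 10.7%. The replicate block gave 1 (Krt20; 2.86% against 4.11%). Tumors sharing a replicate number correlated in their deviations at -0.03, 0.491, -0.356 and 0.594. Tumors of different number were not set beside them, so these values cannot decide whether the numbers pair tumors. Of the wider lists, 0 genes had an adjusted p below 0.05, and 0 to 3 with 1 tumor left out. The 3 were the acinar genes Ctrb1, Prss2 and Try5, without C3-/- replicate 1, and the count was also 3 without WT replicate 4 and C3-/- replicate 1 together. Among all genes tested, 4 of 16882 were called in the first of these fits and 4 of 16464 in the second, all lower in C3-/- tumors. Pairs with an adjusted p below 0.05 numbered 2, and 1 to 3 with 1 tumor left out, with Esrp1 and Grhl2 lost in 6 of 8 cases. Cdh1 and Snai2 were added only without C3-/- replicate 3. The epithelial median, -0.16 as reported, was -0.35 without WT replicate 4 and C3-/- replicate 1 together (SD between tumors, 0.30).

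Of 628 alternative log2 fold changes of members, 575 kept their direction and 53, in 16 members with estimates of at most 0.38 in size, turned. The cause was not tested. With 1 tumor left out, the ranges were -0.38 to 0.05 for Ocln, -0.35 to 0.16 for Grhl2, -0.16 to 0.12 for Zeb1, -0.50 to 1.18 for Trp63, -0.24 to 0.30 for Tff2, -0.25 to 0.15 for Elf3, -0.46 to 0.09 for Epcam, -0.04 to 0.35 for Tjp1, -0.24 to 0.05 for Muc1, -0.60 to 0.14 for Esrp1, -0.77 to 0.12 for Ovol1, -0.36 to 0.11 for Snai1, -0.21 to 0.38 for Twist2, -0.18 to 0.01 for Cdh1 and -0.16 to 0.33 for Zeb2. Trp63 was -0.61 with limma-voom and -0.18 with the block. Zeb1 was 0.00 with limma-voom and with 10 counts in every tumor, 0.02 with the block and 0.21 without WT replicate 4 and C3-/- replicate 1, where Tff2 was -0.41, Grhl2 0.06 and Twist2 -0.30. Grhl2 was 0.00 with 10 counts in every tumor. Without WT replicate 3 and C3-/- replicate 1, Epcam was 0.06, Muc1 0.02, Agr2 0.06, Grhl2 0.28, Esrp1 0.25, Snai1 0.08 and Twist2 -0.04. Elf3 was 0.00 with the length trend removed.

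With 4 tumors per group and a median biological coefficient of variation of 0.245, intervals were wide. Trp63, Krt5, Ovol1 and Tff1 rest on at most 59 counts per tumor.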
